A study of Mus musculus with 39 samples.

Results

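Nf1, Rasa1, Map3k1, Rb1, Fbxw7, Arid1a and Setd2, 7 tumour suppressors that lose function through truncating changes, were followed through mouse mammary samples of a Sleeping Beauty transposon study. Their probe sets were taken from the platform annotation and all were kept, because an insertion can cut off a part of a transcript. This gave 15 probe sets, of 45101 on the array and 42660 whose ID is not marked _x_at (the mark of probes that match several genes); 0 probe sets of these genes bore that mark. Nf1 and Rasa1 had 3 probe sets each, Map3k1, Rb1, Fbxw7 and Arid1a had 2 each, and Setd2 had 1. The values are log2 expression summaries of Affymetrix arrays, and a difference of 1 is a 2-fold difference.

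The study hybridised 39 samples to 39 arrays, and the genotype labels join elements written SB, Tg, K5Cre and Bcat. Arrays labelled SB/Tg/K5Cre/Bcat, named quadruple here, numbered 19 and came from 15 animals; those labelled SB/Tg/k5Cre, named triple K5Cre, numbered 8 and came from 8. These 27 arrays of 23 animals are called the K5Cre breast arrays here. Those labelled SB/Tg/Bcat, named triple Bcat, numbered 3 and came from 2 animals, the masses (Bcat +/-) had 2 arrays of 2 animals, and the ventral tumours (Bcat +/-) had 3 arrays of 1 animal; these 8 arrays lack K5Cre in their label and are called K5Cre-free lesions for short, although the labels name only the ventral samples tumours. The titles of the masses and ventral tumours, and of no other samples, carry names that begin with C57, and the labels do not explain the name. Normal gland had 4 arrays of 4 animals that carried the transposon genotypes too: 2 were triple K5Cre, 1 quadruple and 1 triple Bcat. The labels give the tissue of the quadruple and triple samples as breast and do not call them tumours; age and sex are not given in the sources used here. A K5Cre allele places Cre recombinase under the promoter of keratin 5, a protein of basal epithelium. Which cells of a sample had Cre activity was not measured here. Sites of transposon insertion were not used here, so no level below can be tied to an insertion.

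Nf1 and Rasa1 encode GTPase-activating proteins, which switch RAS off and so restrain the RAF, MEK and ERK kinases. Map3k1 is a kinase above the JNK pathway, Rb1 holds E2F transcription factors in check before DNA replication, and Fbxw7 is the subunit of an SCF ubiquitin ligase that recognises cyclin E, MYC, JUN and NOTCH. Arid1a is a subunit of the SWI/SNF chromatin remodelling complex, and Setd2 is the enzyme that writes H3K36me3, a trimethyl mark on histone H3. In transposon screens of such genes an insertion is private to a tumour, which is why single arrays were set against the others before groups were compared.

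Sleeping Beauty inserts at the dinucleotide TA, which reads the same on both strands. The promoter windows of Rasa1 and Setd2, the members with the lowest single-array readings in robust units (defined with the rule for low values), and of Nf1, with the highest, are shown with every TA in capitals. Each holds 300 bases around the gene's start, most of them upstream; they come from RefSeq in build GRCm38.p6, and 6 of the 7 members had an entry.
Rasa1, chr13:85289437-85289736, minus strand: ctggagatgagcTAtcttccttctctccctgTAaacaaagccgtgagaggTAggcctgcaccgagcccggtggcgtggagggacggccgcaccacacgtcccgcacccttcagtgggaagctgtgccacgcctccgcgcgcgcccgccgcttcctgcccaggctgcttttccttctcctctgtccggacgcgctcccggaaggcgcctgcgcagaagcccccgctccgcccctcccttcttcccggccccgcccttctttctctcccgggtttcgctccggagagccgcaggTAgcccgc
Setd2, chr9:110532347-110532646, plus strand: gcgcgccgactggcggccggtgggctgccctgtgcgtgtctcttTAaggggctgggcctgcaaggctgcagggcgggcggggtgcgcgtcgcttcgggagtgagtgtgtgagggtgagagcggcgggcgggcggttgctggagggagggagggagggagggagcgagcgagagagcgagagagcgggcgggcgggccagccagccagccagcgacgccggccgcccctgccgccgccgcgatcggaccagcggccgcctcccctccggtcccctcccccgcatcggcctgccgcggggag
Nf1, chr11:79339642-79339941, plus strand: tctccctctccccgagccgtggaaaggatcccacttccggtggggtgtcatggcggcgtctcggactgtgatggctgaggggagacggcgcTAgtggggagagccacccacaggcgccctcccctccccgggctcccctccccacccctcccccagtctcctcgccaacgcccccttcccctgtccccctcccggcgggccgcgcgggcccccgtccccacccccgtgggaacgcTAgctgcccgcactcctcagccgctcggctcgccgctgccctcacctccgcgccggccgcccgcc
The Rasa1 window held 4 TA, the Setd2 window 1 and the Nf1 window 2. Of 32851 promoter windows of the same length 99.1% held at least 1 TA and the median was 10. The share of windows with as few TA was 14.5% for the count in Rasa1, 2.86% for Setd2 and 5.98% for Nf1. These counts describe the windows only and say nothing of the gene bodies.

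A value was called low in an array when it lay at least 1 log2 unit below the median of the other 26 K5Cre breast arrays and at least 3.5 robust units below it, a robust unit being the scaled median absolute deviation of those 26. The mirrored rule called high values. Of 405 member values 7 were called low (1.73%), against 0.243% of all values. They came from 5 of 15 probe sets (33.3%), from 3 of 7 genes (8.93% of all genes had a low call) and from 4 arrays, whereas 5.01% of all probe sets, and 11.3% of those with a median of 6 or more, had a low call in any array. The members were chosen with earlier results known, so this share is a description without a test. The low values were those of Rasa1 in quadruple 3 (all 3 probe sets), triple K5Cre 1 and triple K5Cre 8, of Fbxw7 in triple K5Cre 1, and of Setd2 in triple K5Cre 6. A further 10 values in 6 probe sets were called high, where 13.9% of all probe sets had a high call. Each of the 4 animals with a low value gave 1 K5Cre breast array, so no other K5Cre array of the same animal shows whether the low value recurs.

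**Figure D1:**
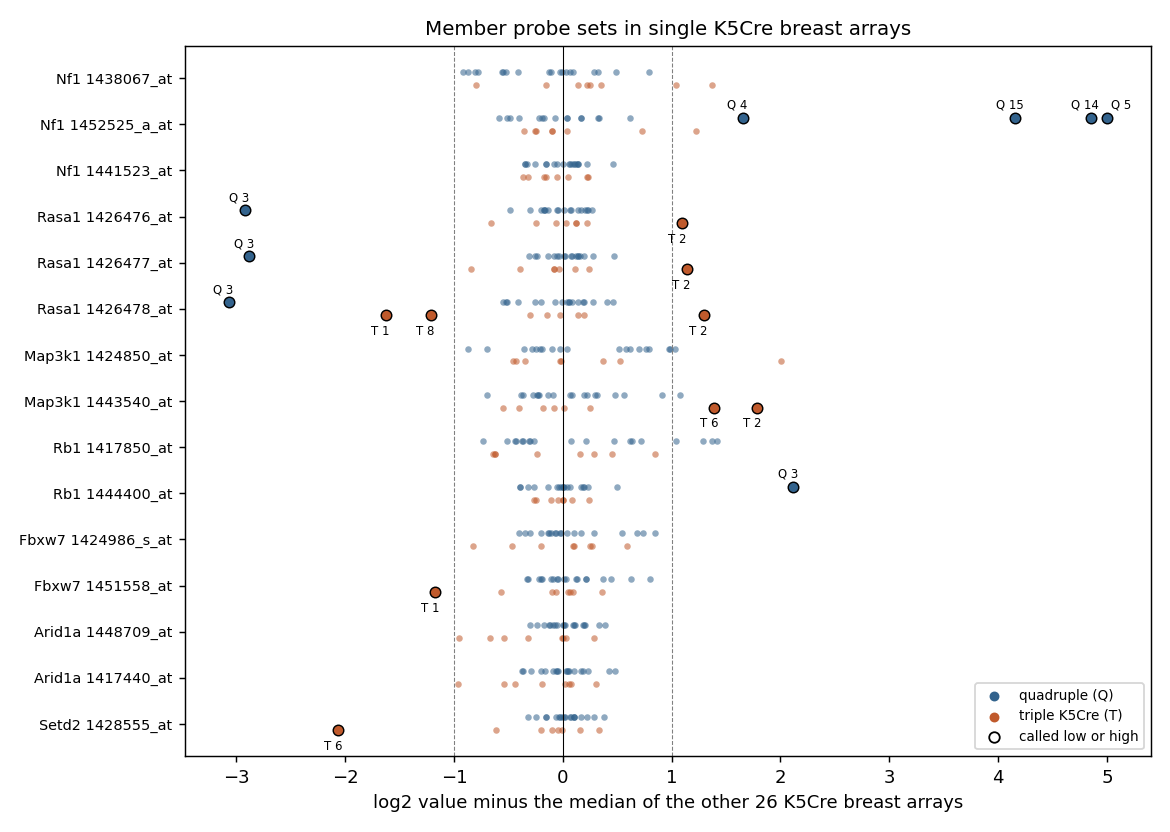
Each point is 1 of the 27 K5Cre breast arrays: the horizontal axis gives its log2 value minus the median of the other 26, and each row is a member probe set, with quadruple arrays above triple K5Cre arrays. Outlined points met the rule for a low or high value and dashed lines mark 1 log2 unit; quadruple 3 stands at -2.92, -2.88 and -3.07 in the Rasa1 rows and triple K5Cre 6 at -2.06 in the Setd2 row.

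The arrays that carried these calls differed in how many probe sets they had low in all. Quadruple 3 had 632 low calls, the most of the 27, triple K5Cre 1 had 324, triple K5Cre 6 had 210 and triple K5Cre 8 had 22, in the middle of the order. Quadruple 8, with 474, ranked 2nd and had no member called, and quadruple 15 had 0. The interquartile range of the deviations of all probe sets was 0.48 in quadruple 3, the highest of the 27, where the range began at 0.23. The 3 prime minus 5 prime difference of the Gapdh control probes, a measure of RNA integrity, was 0.38 in quadruple 3 and 0.04 in triple K5Cre 6, within the range of the K5Cre breast arrays of 0.03 to 1.18. The epithelial list mean, over 15 genes such as Epcam and Krt8, ran from 8.28 (quadruple 8) to 10.79 in the quadruple arrays, from 9.78 to 10.95 in triple K5Cre and from 9.56 to 9.79 in normal gland. The fibroblast list mean, over 12 genes, ran from 6.63 to 10.88 in quadruple, from 7.60 to 10.77 in triple K5Cre and from 10.14 to 10.80 in normal gland, and quadruple 3 held the lowest value. In bulk tissue, fewer cells of a type and less RNA per cell cannot be told apart.

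Rasa1, the GTPase-activating protein p120, was far lower in quadruple 3 than in any other array of the study, in each of its 3 probe sets. In 1426476_at quadruple 3 read 6.65, whereas the median of the 27 K5Cre breast arrays was 9.57 and the next lowest array, triple K5Cre 8, read 8.91. In 1426477_at it read 6.36 against a median of 9.23, with triple K5Cre 8 next at 8.39. In 1426478_at it read 4.22 against a median of 7.28, with triple K5Cre 1 next at 5.66. No array of any group overlapped quadruple 3 in any of the 3 probe sets. The deviations of -2.92, -2.88 and -3.07 correspond to 7.57-fold, 7.37-fold and 8.39-fold lower values and to -11.73, -15.80 and -11.08 robust units. Ordered by robust units among 42660 probe sets of that array, they ranked 6th, 2nd and 9th from the lowest. Of 3743 genes with 3 or more probe sets, 52 (1.39%) had at least 3 called low in 1 array.

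**Figure D2:**
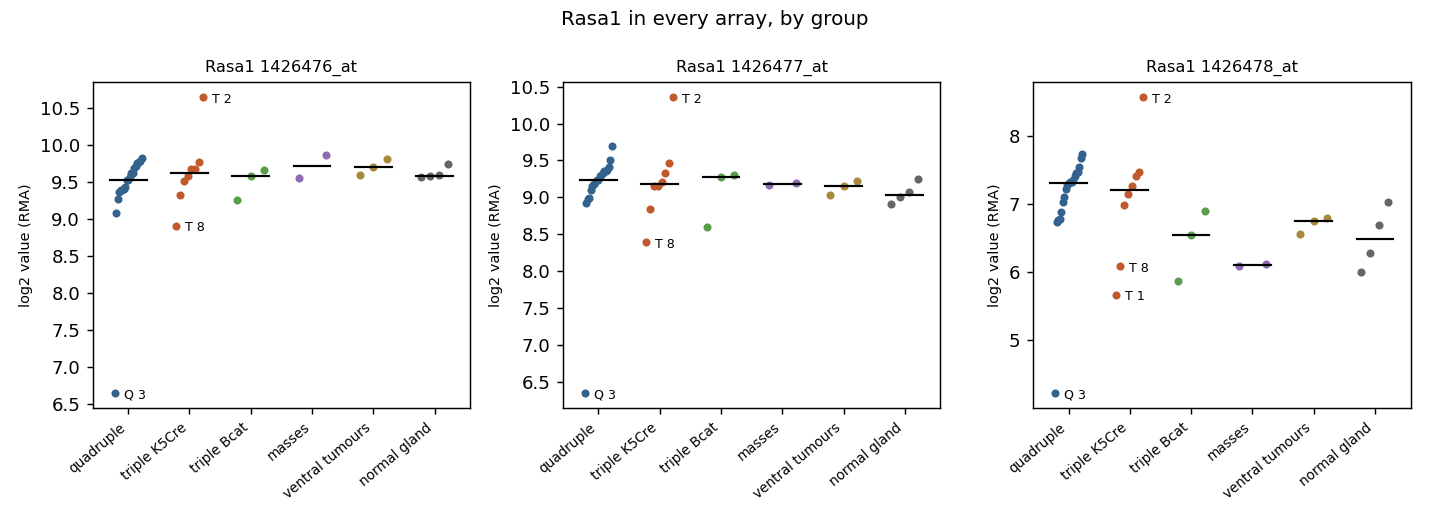
Log2 values (vertical axis) of the 3 Rasa1 probe sets in all 39 arrays, by group, with the bar at the group median; Q stands for quadruple and T for triple K5Cre, and the vertical axes differ between panels and start above 0. Quadruple 3 lies at 6.65, 6.36 and 4.22, below every other array, and triple K5Cre 2 lies highest at 10.65, 10.36 and 8.57.

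The low reading in quadruple 3 did not extend to the genes nearest to Rasa1 on the chromosome. Genes on either side in the RefSeq order, taken where their median was 6 or more, gave deviations of 0.52 for Ccnh and -0.32 for Cox7c, the nearest on each side. Tmem161b stood at 1.04, while Mef2c, a transcription factor of muscle and vessels, stood at -2.25 and Vcan, which encodes a matrix proteoglycan of stroma, at -3.60. The median deviation of the nearest 10 such genes was -0.08, that of the nearest 50 was 0.14 and that of all 377 on chromosome 13 was -0.01. Of the 10 nearest, 0 met the rule for a low value.

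Markers of fibroblasts were lowest in the same array as Rasa1. The fibroblast list mean of quadruple 3 lay 2.97 below the median of the other arrays, and 4 of 12 genes, Col1a2, Col3a1, Dcn and Fbln1, were called low there; 1 of 13 leukocyte genes (Arhgdib), 1 of 15 epithelial genes (Krt14) and 0 of 12 endothelial genes were. Quadruple 14 and triple K5Cre 6 came next with fibroblast means of 7.51 and 7.60, and their Rasa1 1426476_at values were 9.63 and 9.33. With the epithelial, adipocyte, muscle, leukocyte and fibroblast list means as covariates, Rasa1 in quadruple 3 deviated by -1.73, -1.73 and -1.37, or -5.22, -6.78 and -3.32 robust units. The first 2 of these still met the rule and the third did not; the part of fibroblast content in the raw deviations was not tested further.

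In other arrays the Rasa1 probe sets differed from each other. In triple K5Cre 1, 1426478_at read 5.66 (deviation -1.63, 3.09-fold lower), while 1426477_at deviated by -0.39 and 1426476_at by 0.12. In triple K5Cre 8 all were below the median, by 1.21 in 1426478_at (read at 6.08), 0.84 in 1426477_at and 0.66 in 1426476_at, and the first of these was called. With the covariates, the 1426478_at deviations were -0.75 in triple K5Cre 1 and -0.66 in triple K5Cre 8, which did not meet the rule. Values of this size also occurred outside the K5Cre breast arrays, where the rule was not applied: 1426478_at read 5.87 in triple Bcat 1, 5.99 in normal gland 3 and 6.09 in mass 2. Where each probe set lies in the transcript was not used here.

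Triple K5Cre 2 was the opposite extreme of Rasa1. It read 10.65, 10.36 and 8.57, the highest of all 39 arrays in each probe set, with deviations of 1.10, 1.14 and 1.30, all called high (0.869% of all values were). The normal gland of the same animal, T627, read 9.58, 8.92 and 5.99. In triple K5Cre 2 the 10 genes nearest to Rasa1 had a median deviation of 0.45, the nearest 50 of 0.10 and all 377 on chromosome 13 of 0.002. Ccnh and Cox7c, the nearest on each side, deviated by 0.21 and 0.35. Whether the Rasa1 reading and those of its neighbours are linked was not tested. Over the 27 arrays the probe sets correlated at r = 0.96, 0.93 and 0.87, and without quadruple 3 at 0.83, 0.87 and 0.69; the points share library and normalization.

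Other genes of the RAS pathway were read in quadruple 3 to show the setting of the Rasa1 value, and those named here were chosen after their values were seen. Of the 10 other GTPase-activating proteins and SPRED partners measured, 8 lay below the median, with a list median of -0.33. Rasa3, a GTPase-activating protein of RAS and RAP, was called low (-2.03) and Rasal1 was called high (1.79). Nf1 1438067_at read 6.13 there, 0.12 below the median. Jun, a transcription factor below JNK, was called low there (-1.37). Of 14 ERK feedback and immediate target genes 10 lay below the median, by 0.99 in Dusp6, 1.17 in Spry1, 1.14 in Spry2 and 1.79 in Etv4, and 0 met either rule; Phlda1 lay 1.42 above. The ERK target list mean of quadruple 3 ranked 5th lowest of 27, and that of triple K5Cre 2 ranked 27th, the highest.

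Nf1, the neurofibromin gene, showed no low call by this rule (set against its own group alone, 1438067_at was called low in triple K5Cre 8), but its probe sets disagreed more than those of any other member. In 1438067_at, its brightest probe set, the quadruple arrays ran from 5.34 over a median of 6.14 to 7.02, the triple K5Cre arrays from 5.45 over 6.47 to 7.61, and the glands from 6.42 to 6.68. The lowest arrays, quadruple 7 (-0.91), quadruple 14 (-0.87), quadruple 15 (-0.81) and triple K5Cre 8 (-0.80), were not set apart from the rest and lay within 2 robust units. In 1452525_a_at most arrays sat near the bottom of the scale: the median of the 27 was 3.56, the K5Cre-free lesions lay between 3.17 and 3.47 and the glands between 3.25 and 3.41. Against this, quadruple 5 read 8.52, quadruple 14 read 8.37, quadruple 15 read 7.68 and quadruple 4 read 5.17. These 4 were called high, lying 31.9-fold, 28.9-fold, 17.9-fold and 3.15-fold above the median, and came from 4 animals. The next highest array was triple K5Cre 4 at 4.75. The weakest probe set, 1441523_at, stayed between 3.56 and 4.35 in the 27 arrays with 0 calls.

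**Figure D3:**
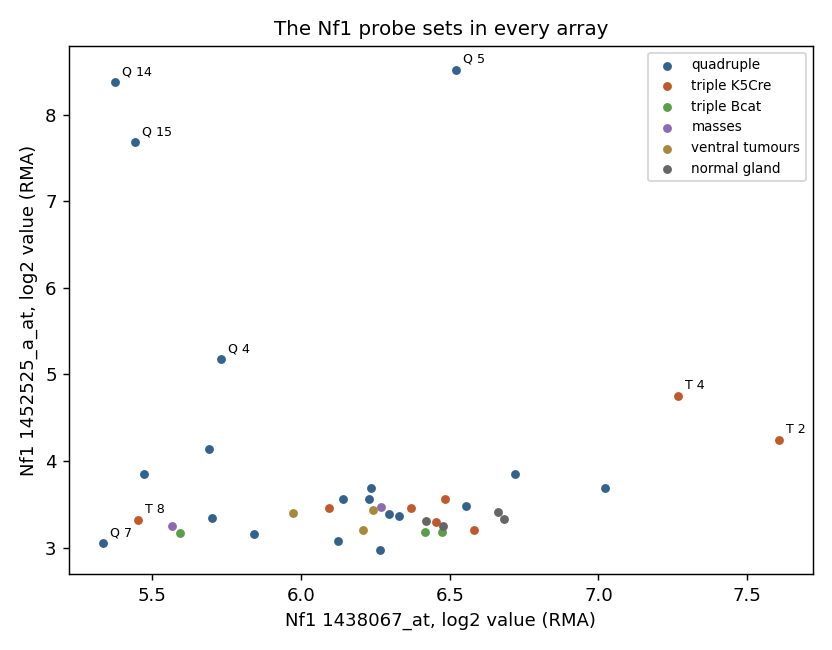
Log2 values of Nf1 1438067_at (horizontal axis) and 1452525_a_at (vertical axis) in all 39 arrays, coloured by group, with Q for quadruple and T for triple K5Cre. Quadruple 5, 14 and 15 lie at 7.68 or above on the vertical axis, far from the other arrays, and quadruple 14 and 15 are among the lowest on the horizontal axis.

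The arrays high in 1452525_a_at did not share a level of the other Nf1 probe set. Quadruple 14 and quadruple 15 read 5.38 and 5.44 in 1438067_at, close to the lowest of the 27, quadruple 4 read 5.73 (-0.52), and quadruple 5 read 6.52 (0.29). Over the 27 arrays the probe sets correlated at r = -0.16, and 1438067_at with 1441523_at at 0.43. Leukocyte list means were among the 5 lowest of 27 in 3 of the 4: they ranked the lowest of 27 in quadruple 14, 2nd in quadruple 5 and 5th in quadruple 4, but 13th in quadruple 15. Quadruple 5 also had the highest 3 prime minus 5 prime differences of the study, 1.18 for Gapdh and 1.70 for Actb, and a skeletal muscle list mean of 10.83; in quadruple 14 and 15 the Gapdh difference was 0.03 and 0.20. With the 5 list means as covariates the deviations were 2.09, 2.48, 3.76 and 0.24 in quadruple 5, 14, 15 and 4, so that all but the last stayed above 2 log2 units. Evi2a, a leukocyte gene that lies next to Nf1 in the gene order used, deviated by -1.94, -2.40, 0.36 and -0.85 in the same arrays, and Wsb1, the nearest on the other side, by -0.11, 0.37, -0.02 and -0.24.

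Map3k1, the kinase above JNK, had no low call and was highest in triple K5Cre 2. In 1424850_at that array read 9.84 against a median of 7.83, a deviation of 2.01; because the probe set varied widely (quadruple arrays 6.98 to 8.86), this was 3.19 robust units and not a call. In 1443540_at it read 5.81 (1.79) and triple K5Cre 6 read 5.41 (1.39), both called high against a median of 4.05. With the 5 list means as covariates the deviations were 1.75 in triple K5Cre 2 and 0.73 in triple K5Cre 6. That of triple K5Cre 6 no longer met the rule, and its 1424850_at value deviated by only 0.53, or 0.84 robust units. In triple K5Cre 6 Jun, chosen after its value was seen, was called high as well (1.56). The lowest arrays were quadruple 8 in the first (-0.87) and quadruple 17 in the second (-0.70). The nearest 10 genes of triple K5Cre 2 had a median deviation of -0.28, so the high reading did not extend to them. The probe sets correlated at r = 0.82, and 0.73 without triple K5Cre 2. Within animal Q648, whose 3 arrays differ in makeup, 1424850_at ranged over 1.83 log2 units.

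Rb1 was not low in any single array. In 1417850_at the quadruple arrays ran from 8.69 over a median of 9.40 to 10.71, triple K5Cre from 8.79 over 9.32 to 10.14, and the glands from 9.63 to 10.66. The array furthest below the median, quadruple 4, deviated by -0.73, or -1.15 robust units. The highest was quadruple 3, at 10.71 (1.41), followed by quadruple 6 (1.38). In 1444400_at, a dim probe set with a median of 3.70, quadruple 3 read 5.82, 2.12 above the median and called high, while the next array stood at 0.50. Thus the array lowest in Rasa1 was the highest in both Rb1 probe sets. In that array 17 of 19 E2F targets of replication lay below the median, the list median being -0.39, and 0 met the rule. Of 23 other genes of the Rb1 family and its partners there, 2 were called low, Ccnd2 and Cdkn2a, named after their calls were seen. Cdkn2a was also the 1 gene called low there among 27 other tumour suppressors.

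Fbxw7, the substrate receptor of the SCF ligase, was lowest in triple K5Cre 1 in both probe sets. In 1451558_at that array read 7.07, whereas quadruple ran from 7.91 over 8.23 to 9.02, the other triple K5Cre arrays from 7.67 (triple K5Cre 7) to 8.57, the glands from 7.69 to 8.06, and triple Bcat 1 read 7.37. The deviation was -1.17, a 2.25-fold lower value and -5.29 robust units. In 1424986_s_at it read 7.77, 0.83 below the median and -2.81 robust units, which did not meet the rule. The probe sets correlated at r = 0.92. With the composition covariates the 1451558_at deviation was -1.13. On the chromosome, Tmem154 deviated by -0.94 on one side of Fbxw7 and Gatb by 0.68 on the other, and the nearest 10 genes had a median of -0.07. Of 18 other genes of the ligase and its substrates in that array, 12 lay below the median and 0 met either rule. Among genes chosen after their values were seen, Ccne1 stood at -0.11, Myc at 0.27, Jun at -0.32 and Notch1 at -0.73.

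Setd2, the H3K36 trimethylase, was far lower in triple K5Cre 6 than in the remaining 38 arrays. That array read 5.91. The quadruple arrays ran from 7.65 over a median of 7.98 to 8.34, the other triple K5Cre arrays from 7.36 (triple K5Cre 2) to 8.30, the K5Cre-free lesions from 7.34 to 8.08 and the glands from 7.56 to 7.97. The value lay 2.06 below the median, 4.18-fold lower, at -13.75 robust units, and ranked 3rd from the lowest in that array. Setd2 has a single probe set on this array type, so no other probe set bears on the reading. The genes on either side, Klhl18 and Nradd, deviated by -0.16 and 0.41, the nearest 10 by a median of 0.09 and all 584 on chromosome 9 by 0.03. With the composition covariates the deviation was -1.46, or -5.47 robust units; triple K5Cre 6 had the highest epithelial list mean of the 27 and the third lowest fibroblast mean. Of 14 other genes that write, read or erase H3K36 methylation, 7 lay below the median, the list median was 0.03 and 0 met either rule. Also chosen after their values were seen, Nsd1, another H3K36 methyltransferase, stood at -0.08 and Kdm2b, a demethylase, at -0.84.

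**Figure D4:**
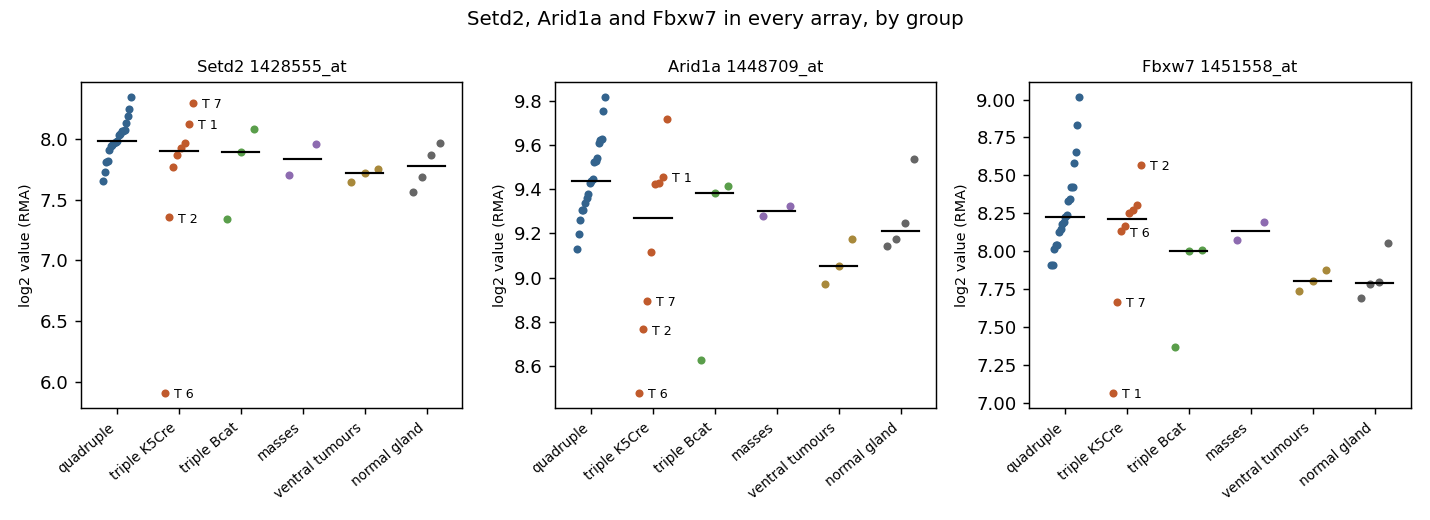
Log2 values (vertical axis) of Setd2, the brightest Arid1a probe set and Fbxw7 1451558_at in all 39 arrays, by group, with the bar at the group median; T stands for triple K5Cre, and the vertical axes differ between panels and start above 0. Triple K5Cre 6 is lowest in Setd2 (5.91) and in Arid1a (8.48), and triple K5Cre 1 is lowest in Fbxw7 (7.07).

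Arid1a, the SWI/SNF subunit, was lowest in the same array as Setd2 and just missed the rule there. In 1448709_at triple K5Cre 6 read 8.48 against a median of 9.43, and in 1417440_at 5.41 against 6.37. The deviations of -0.95 and -0.97 were -5.24 and -4.22 robust units and missed the 1-unit limit. Just inside that limit stood Fbxw7 1451558_at at -1.17. Next lowest in 1448709_at were triple K5Cre 2 (8.76, -0.67) and triple K5Cre 7 (-0.53). The 10 genes nearest to Arid1a had a median deviation of -0.36 in triple K5Cre 6, -0.43 in triple K5Cre 7 and 0.09 in triple K5Cre 2. In triple K5Cre 7 the median of all 656 genes of chromosome 4 was -0.35, whereas in triple K5Cre 6 it was -0.09 and in triple K5Cre 2 -0.04. Copy number was not measured here. The Arid1a probe sets correlated at r = 0.91. Setd2 correlated with them at 0.71 and 0.67, and without triple K5Cre 6 at 0.50 and 0.38.

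The genes most like each member were those whose brightest probe set had the highest Pearson correlation with the member's brightest over the 27 arrays, which share normalization and tissue makeup. Rasa1 was followed most closely by Taok1 (0.86), Strn3 (0.84) and Cald1 (0.83), but without quadruple 3 these were 0.51, 0.33 and 0.57. Setd2 was followed by Clcn4 (0.86), Itsn1 (0.74) and Rpl22 (0.74), which became 0.10, 0.51 and 0.05 without triple K5Cre 6. For Rasa1 and Setd2 the likeness thus rested largely on 1 array. For Map3k1, Rb1, Fbxw7 and Arid1a it changed by less when the most deviant array was left out: Map3k1 with Ddo, Rasef and Ltbp3 (0.88, 0.85, 0.84, and 0.88, 0.86, 0.80 without triple K5Cre 2), Rb1 with Cck, Cpsf4l and Clic6 (0.86, 0.80, 0.78, and 0.84, 0.76, 0.75 without quadruple 3), Fbxw7 with Itfg2, Plpbp and Osbp (0.82, 0.80, 0.77, and 0.80, 0.76, 0.74 without quadruple 5) and Arid1a with Zfp46, Wiz and Usp24 (0.84, 0.78, 0.77, and 0.77, 0.70, 0.73 without triple K5Cre 6). Nf1 was followed by Uggt2, Dok1 and Arf4 (0.67, 0.66, 0.65, and 0.56, 0.53, 0.50 without triple K5Cre 2).

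Arrays of the same animal give the spread to set beside these deviations. Over the 15 probe sets the pair of arrays of Q190 differed by a median of 0.10 and at most 0.32, and the pair of Q2154 by a median of 0.10 and at most 0.41. The 3 arrays of Q648 spanned a median of 0.51. In the animals with both tissues, T627 differed between breast and gland by a median of 0.92, with 2.58 in Rasa1 1426478_at and 2.22 in Map3k1 1424850_at, and T635 by a median of 0.33. The deviations of Rasa1 in quadruple 3 and of Setd2 in triple K5Cre 6 exceeded in size every range between arrays of 1 animal and 1 tissue. They were picked as the lowest and were taken against arrays of other animals, so this is a description without a test.

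Groups were then compared in a single limma fit over all 42660 probe sets, with the animal as a random block and Benjamini-Hochberg adjustment over all of them. The question was whether any member differed between whole groups, and 1 call was made in the 4 comparisons. The comparisons with normal gland share its 4 arrays. In quadruple against normal gland 12.9% of all probe sets were called and 1 of 15 member probe sets: Fbxw7 1451558_at, at 8.30 ± 0.30 (SD, n = 19) in quadruple and 7.83 ± 0.16 (SD, n = 4) in normal gland, rose by 0.53 (SE 0.18, limma adjusted p = 0.0474), with 15 animals behind the 19 arrays. The groups overlapped, and the call was lost without quadruple 3 (limma adjusted p = 0.0588) and without normal gland 1 (0.12), 3 (0.165) or 4 (0.116). It was also lost with adipocyte and muscle covariates (0.524). There the difference stayed at 0.53, and 132 probe sets in all were called. Over all alternatives the adjusted p ran from 0.00265 to 0.524. The other Fbxw7 probe set differed by 0.44 (SE 0.19, adjusted p = 0.143). In triple K5Cre against normal gland 12.3% of all probe sets (5.83% higher, 6.47% lower) and 0 members were called, with 1 of 15 members (Rb1 1417850_at) and 25.2% of all probe sets at an unadjusted p under 0.05.

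No other member passed the test in these comparisons. In quadruple against normal gland the 15 log2 differences had a median of 0.22 (0.04 over all probe sets) and ran from -0.49 (Nf1 1438067_at) to 1.11 (Nf1 1452525_a_at, carried by the arrays above). In triple K5Cre against normal gland they ran from -0.71 (Rb1 1417850_at, SE 0.31, limma adjusted p = 0.138) to 0.76 (Rasa1 1426478_at). Rb1 1417850_at was 10.07 ± 0.43 (SD, n = 4) in normal gland, 9.58 ± 0.65 (SD, n = 19) in quadruple and 9.31 ± 0.50 (SD, n = 8) in triple K5Cre. Quadruple 3 lowered the Rasa1 mean of its group. Rasa1 1426478_at differed from normal gland by 0.73 (limma adjusted p = 0.236, and 0.0089 to 0.783 over all alternatives). Without quadruple 3, left out after its low Rasa1 values were seen, the difference was 0.89. That fit was chosen on the values of this gene, so it is a description without a test.

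Quadruple against triple K5Cre, which differ by the Bcat element, gave 0 calls (0% of all probe sets), with 2220 probe sets (5.20%) and 3 of 15 members at an unadjusted p under 0.05. The members' differences ran from -0.51 (Nf1 1438067_at, SE 0.21) to 0.74 (Nf1 1452525_a_at, SE 0.55), each with an adjusted p of 0.935 or more. Arid1a 1448709_at was 0.31 higher in quadruple (SE 0.11) and Setd2 0.36 higher (SE 0.17), both at an adjusted p of 0.935 by limma; their triple K5Cre means include triple K5Cre 6. The labels of the masses and ventral tumours lack SB and Tg as well as K5Cre, and their titles carry the C57 names. The next comparison therefore cannot set K5Cre apart from these. Each lesion group counted equally in it, although the ventral tumours came from 1 animal. K5Cre breast arrays against the K5Cre-free lesions gave calls in 6.79% of all probe sets (3.96% higher, 2.83% lower) and in 0 members. At an unadjusted limma p under 0.05 were 23.1% of all probe sets and 2 of 15 members. The 2 were Map3k1 1424850_at (0.60) and Rasa1 1426478_at (0.70, limma adjusted p = 0.177). Without quadruple 3, again left out for its low Rasa1 values, the Rasa1 1426478_at difference in that comparison was 0.79, a description without a test. Over all alternatives the limma adjusted p of this probe set ran from 0.0331, in that fit, to 0.36. In the order of the 6 group means, the ranges of neighbouring groups overlapped in 72 of 75 pairs over the 15 probe sets. The other 3 pairs lay in the dim probe sets Map3k1 1443540_at and Nf1 1452525_a_at. The same count was not made over all probe sets, so it shows nothing particular to these genes.

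**Figure D5:**
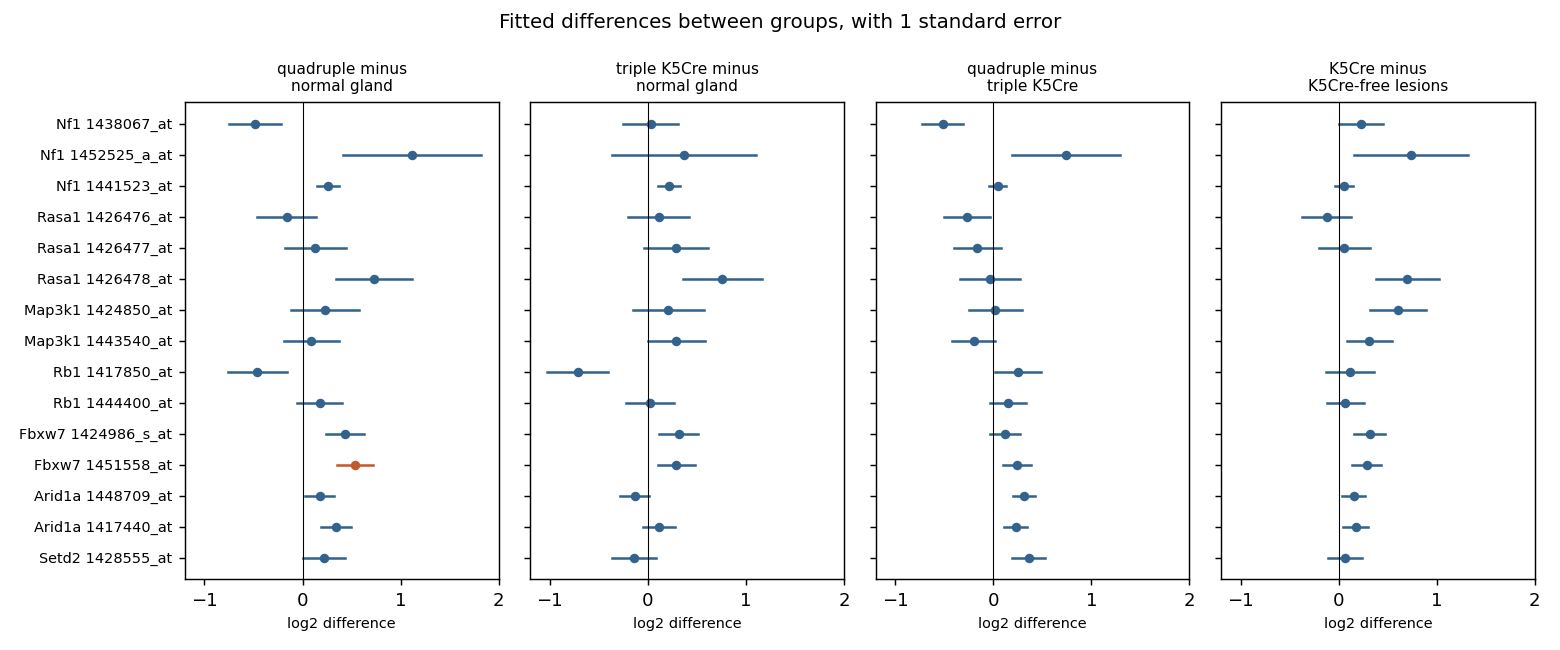
Fitted log2 differences (horizontal axis) of the 15 member probe sets in the 4 comparisons, as points with bars of 1 standard error. The orange point, Fbxw7 1451558_at in quadruple against normal gland (0.53), was the only member called at an adjusted p under 0.05 in these fits; Nf1 1452525_a_at has the widest bars.

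Lists of genes around the members were read in the same fits. In quadruple against normal gland 16 of 19 E2F targets of replication rose, among them Rrm2, a subunit of ribonucleotide reductase (2.41), and Ccna2, cyclin A2 (1.84), and 6 of 24 genes of the Rb1 family and its partners rose and 1 fell; Cdkn2a, the p16 and p19 gene, rose by 2.29 and E2f8 by 1.89, and E2f6 fell by 0.89. Of 14 ERK feedback and target genes 3 rose, including Etv4 (1.82) and Dusp5 (1.26). Of 13 genes of the RAS and ERK cascade 2 rose and 2 fell, and of 12 RAS GTPase-activating proteins and partners 0 were called. Of 19 genes of the Fbxw7 ligase and its substrates 4 rose, with Aurka (1.39) and Ccne2 (1.26) in front; of 24 SWI/SNF subunits 4 rose and 3 fell, Smarcd3 most (-1.61); of 15 H3K36 methylation genes 3 rose, Kdm2b by 0.72; and of 19 genes of the JNK and p38 cascade 1 rose (Junb, 1.01). Over all probe sets 6.15% rose and 6.78% fell. The lists hold only the brightest probe set of each gene, so this share is not of the same kind. In a fit of the brightest probe sets alone 2791 of 18094 were called in either direction, against 5516 of 42660 over all.

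In triple K5Cre against the same glands 19 of 19 E2F targets and 6 of 14 ERK targets rose. Of 24 genes of the Rb1 family and its partners 10 rose and 1 fell, and Rasa3 fell by 1.05 among the RAS GTPase-activating proteins. In the fit of the brightest probe sets alone 3125 of 18094 were called in either direction. All 12 adipocyte genes and all 15 skeletal muscle genes fell in both comparisons, with medians of -5.13 and -5.61 in quadruple and -5.77 and -6.47 in triple K5Cre. Adipocyte list means were 11.61 or more in the glands, and 5.27 to 11.68 in quadruple. With these 2 list means as covariates, 132 probe sets in all were called in quadruple against normal gland and 77 in triple K5Cre against normal gland, and 0 members; the part of adipocyte and muscle content in the count of each list was not tested. In quadruple against triple K5Cre 0 genes of any of these lists were called; the smallest p in the GTPase-activating list was that of Nf1 itself. Against the K5Cre-free lesions 3.96% of all probe sets rose and 2.83% fell, and the fit of the brightest alone called 1728 of 18094. There 5 of 19 E2F targets rose, with Mcm6 (1.11) and Ccna2 (0.90) in front. Of 24 SWI/SNF subunits 4 rose, with Bcl7a (0.71) and Smarcc1 (0.59) in front, and of 24 genes of the Rb1 family and its partners 1 rose, Lin9 (0.66). Of 19 genes of the Fbxw7 ligase list 1 rose, the substrate Mycn (1.68). Of 14 ERK targets 2 rose, Dusp4 (1.38) and Phlda1 (1.33), and 1 fell, Fosl1 (-1.29). Of 19 genes of the JNK and p38 cascade 2 rose, Mapk8ip1 (0.85) and Jund (0.41), and 1 fell, Map2k4, which phosphorylates JNK (-0.64).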

How the data were processed

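Per the labels' protocols, biotinylated cRNA was made from total RNA for Affymetrix arrays. The authors deposited log2 values of 45101 probe sets, made with RMA per the submitters' processing notes; version, build and detection calls are not given in the sources used here, so dim values cannot be told from background. Probe sets came from the platform annotation (34958 with 1 gene, 932 with several, 9211 with none); 42660 without _x_at were tested. Members, lists and tests were chosen with earlier results of these data known. Named were all members, at most 2 called rises and falls per list (else the 2 smallest p), and the 3 genes most correlated with each member; others are said to be chosen after their values were seen. Groups were fitted with limma 3.58.1 (R 4.3.3), 39 arrays, a mean per group, the animal as a random block (correlation 0.299), and called at an adjusted p under 0.05, so a fitted difference need not equal the difference of means. Gene order and promoters came from RefSeq (GRCm38.p6). Deviations, figures and correlations used Python 3.11.15, numpy 2.4.6, pandas 2.3.3 and matplotlib 3.10.9. Both procedures were tested on simulated data. For the low calls these held only large shifts in noise of equal size, so calls near the limits were not tested. The number of arrays limits the precision, and where titles do not show separate animals, p-values measure only the spread between these samples. Alternatives, including fits without quadruple 3, triple K5Cre 2 or triple K5Cre 6 that were chosen after seeing the data, are given in the closing section. The replicate numbers order arrays only; T627 and T635, shared by title, pair breast with gland.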

Additional observations from a re-analysis of the deposited data

Results flagged for a closer look

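In groups of 4 to 10 arrays, an array was listed when its gap to the nearest other array exceeded Dixon's limit for the group's range. Of 30 combinations of probe set and group (triple K5Cre and normal gland) 4 were listed; chance lists about 1 in 20. Setd2 1428555_at in triple K5Cre 6 was the lowest of 8 triple K5Cre arrays at 5.91, with the next at 7.36. Map3k1 1424850_at in triple K5Cre 2 was the highest of 8 at 9.84, with the next at 8.36. Rasa1 1426476_at in normal gland 1 was the highest of 4 at 9.74, with the next at 9.59. Fbxw7 1424986_s_at in normal gland 2 was the highest of 4 at 8.72, with the next at 8.24. The quadruple group has more than 10 arrays and was not examined this way.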

How the results depend on the processing

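The 7 low member values became 12 with a 1.5-fold minimum, 4 with composition covariates, 5 with a 3-fold minimum, 6 at -5 robust units and 8 after cyclic loess (Arid1a 1448709_at in triple K5Cre 6 added) or against the arrays of the same group (Nf1 1438067_at in triple K5Cre 8 added); the 3 Rasa1 probe sets in quadruple 3 and Setd2 in triple K5Cre 6 met each version except that Rasa1 1426478_at did not with composition covariates. In quadruple against normal gland the 1 called member became 0 with no animal block (Fbxw7 1451558_at adjusted p = 0.0871), animal means, cyclic loess, only the brightest probe set of each gene, or adipocyte and muscle covariates, ranged from 0 to 1 when a gland was left out, and became 5 with array weights. Array weights gave 1 member in triple K5Cre against normal gland (Rb1 1417850_at, -0.77) and 1 against the K5Cre-free lesions, as did leaving out quadruple 3 there. The paired fit, with the 2 animals that gave breast and gland as a replicate block, called 0 members and 0 of all probe sets. It rests on 2 animals and called nothing at all, so its 0 members cannot be read as a result about them. Of 151 recomputed values 0 changed direction. They are refits of only 11 differences, mainly the largest and smallest of each comparison, on nearly the same arrays. A kept direction therefore says little about the members as a whole. Over all probe sets, the 5516 calls of quadruple against normal gland became 12770 with array weights, 132 with the covariates and 2810 without normal gland 3; the 5245 of triple K5Cre became 10593, 77 and 2556; and the 2896 against the K5Cre-free lesions became 9990 with array weights, 1497 with animal means, 963 without triple Bcat 1, 640 without mass 1 and 1505 without mass 2. With only the brightest probe set of each gene, where 18094 were tested, the 3 counts were 2791, 3125 and 1728. Quadruple against triple K5Cre gave 0 calls in each limma fit except 1 call without triple K5Cre 2, a fit chosen after seeing the data, as were those without quadruple 3 or triple K5Cre 6. The cause of these shifts was not tested.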
